A study of Mus musculus with 106 samples.

Results

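The comparison is that of RiboTag IP RNA with input RNA in the cerebellum of control mice of the Gad2 line. Its libraries were taken by their labels for genotype, cell type and tissue, and are 9 of the 106 libraries of the series, 6 of IP and 3 of input RNA. The study profiled cell types of the mouse brain in a knock-in model of Huntington's disease (HD). Control mice were Hdh Q7/Q7 littermates of the Hdh Q7/Q200 (HD) mice, on a 129S4 background, untreated as far as the labels say, and about 9 months old. All mice used here, HD mice included, were heterozygous for a Cre allele and for the RiboTag allele, which adds an HA tag to the ribosomal protein Rpl22 once Cre has acted. Cre came from the *Gad2* locus (Gad2-IRES-Cre), or, in the vGluT2 line used for contrast, from the *Slc17a6* locus (vGluT2-IRES-Cre). A cell whose lineage used that locus at any time keeps the tag, so the tagged cells are not bound to be those that express the driver in the adult.

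GABA neurons of the cerebellum include Purkinje cells, whose axons are the only output of the cerebellar cortex, Golgi cells of the granular layer, and basket and stellate cells of the molecular layer. Granule cells, which outnumber all other neurons of the brain, and unipolar brush cells release glutamate. An IP against the HA tag collects mRNA bound to ribosomes of the tagged cells, whereas input RNA comes from all cells of the same homogenate, the tagged cells included. A fold change of IP against input is therefore a ratio of a cell class to a tissue that contains it, and fewer tagged cells in a tissue and less RNA per tagged cell cannot be told apart in it.

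The 6 IP libraries came from 6 mice, and the 3 input libraries from 3 of these mice. Fits of this comparison with the mouse as a block kept only these 3 mice, with IP replicates 3, 5 and 6 beside the 3 inputs. IP libraries held 28961145 to 40661342 counts on mouse genes (median 35626924), and input libraries 30447351, 31901387 and 32070257. ERCC spike-ins added 0.209% to 2.05% in the IPs and 0.236% to 1.2% in the inputs. IP replicate 5 stood apart from the other libraries. Ribosomal RNA genes took 21.8% of its counts (95% Wilson interval 21.7% to 21.8%, counting error only), against 0.967% to 1.81% in the other 5 IPs and 1.14% to 2.20% in the inputs. The cerebral IP of the same mouse, used for a contrast below, held 9.90%, against 0.982% to 2.63% in the other 5 cerebral IPs. Cerebellar IP replicate 5 also had the lowest depth and the highest share of spike-ins, and 13384 protein-coding genes with a count, against 15653 to 16118 in the other IPs. The numbers of genes called higher and lower in each contrast that used it are therefore also given without it. Among the inputs, replicate 2 held the largest share of mitochondrial counts, 8.91% against 3.61% and 5.10% in replicates 1 and 3.

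Levels are TMM-normalized CPM. Genes were tested by edgeR's quasi-likelihood test and called at a Benjamini-Hochberg adjusted p of 0.05 or less. Of 14147 protein-coding genes tested, 6169 were called (43.6%), of which 3111 were higher in the IP (22%) and 3058 lower (21.6%). At a log2 fold change of 1 or more in size, 1150 of the calls were higher (8.13%) and 2038 lower (14.4%), so the lower calls held more of the large differences. A stricter test, glmTreat, of whether the change itself passes 2-fold called 1288 genes, against 3188 past 2-fold by the first rule. In 5625 genes (39.8%) the IP and input libraries did not overlap. The median log2 fold change of all genes was 0.05. Scaling by library size alone shifted that median by −0.15 and called 2027 genes higher and 3562 lower, so that 36.3% of calls were higher, against 50.4% with TMM. Without IP replicate 5, 2987 genes were called higher and 3877 lower, and 5795 genes were called in the same direction with and without it, 93.9% of the calls with it and 84.4% of those without.

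Genes for making and moving GABA were higher in the IP, all 4 of 4 called, beside 22% of all genes. Their median was 1.82 on the log2 scale. *Gad1* and *Gad2* encode the enzymes that make GABA from glutamate. *Gad1* was at 1405, 1875 and 2338 CPM (lowest, median and highest IP) and at 426, 524 and 476 CPM in input replicates 1, 2 and 3. *Gad2*, the gene that drives Cre in this line, was at 182, 265 and 299 CPM in the IPs and 60.5, 101 and 69.0 CPM in the inputs. For both genes the lowest IP lay above the highest input. The log2 fold changes were 1.97 (SE 0.174, adjusted p = 4.91e-06) and 1.75 (SE 0.212, adjusted p = 4.73e-05). *Slc32a1*, which loads GABA into vesicles, rose by a log2 fold change of 1.89 (SE 0.17). The list summed to 4381 to 5602 CPM in the IPs (median 4886) and to 1329.9, 1592 and 1459.7 CPM in the inputs.

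All 22 genes of the Purkinje list were tested and called higher, beside 22% of all genes. Their median was 1.70 on the log2 scale, from 0.85 to 2.41. In 20 of them the IP and input libraries did not overlap, beside 39.8% of all genes. *Pcp2* (chromosome 8, GRCm38, 3623371 to 3625545), a regulator of G protein signalling, was at 938, 1298 and 1845 CPM (lowest, median and highest IP) and 567, 318 and 563 CPM in the inputs. Each IP lay above each input, and the log2 fold change was 1.49 (SE 0.278, adjusted p = 0.00101). *Foxp2* (chromosome 6, 14901349 to 15441977), a forkhead transcription factor, was at 16.1, 25.5 and 31.7 CPM in the IPs and 3.09, 11.1 and 4.62 CPM in the inputs (log2 fold change 1.99, SE 0.36, adjusted p = 0.000837). Input replicate 2 held more *Foxp2* than the other inputs, but less than any IP. *Calb1*, whose product calbindin buffers calcium, was the highest of the list at 2.41 (SE 0.253, adjusted p = 1.68e-05), with 2344, 3211 and 4813 CPM in the IPs and 493, 694 and 679 CPM in the inputs. *Dner*, a Notch ligand of Purkinje dendrites, had a log2 fold change of 2.15 (SE 0.198), *Ppp1r17*, a phosphatase inhibitor, of 2.01 (SE 0.209), and *Slc1a6*, the glutamate transporter of Purkinje cells, of 1.95 (SE 0.183). The list summed to 27480.0 to 37296 CPM in the IPs (median 33428) and to 9282, 9815 and 8404 CPM in the inputs, with *Itpr1* the most abundant member in both.

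**Figure D1:**
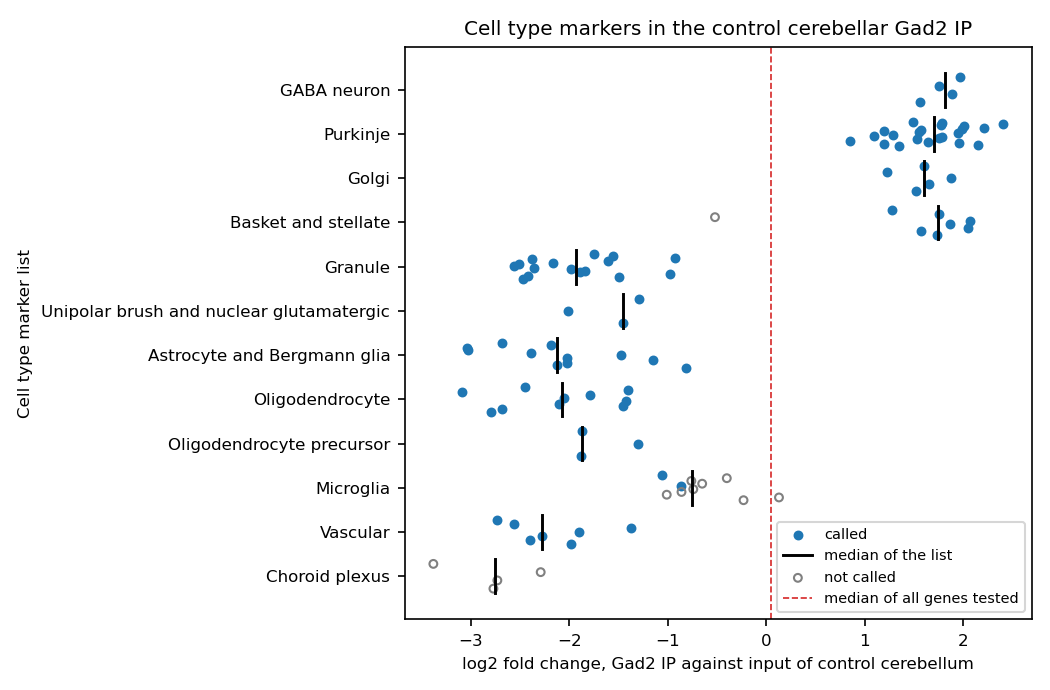
Log2 fold change of the control cerebellar Gad2 IP (6 libraries) against input (3 libraries) for the members of each cell type list, 1 point per gene, filled where called and open where not, with the median of each list as a black bar and that of all genes tested (0.05) as a dashed line. The 4 lists of GABA neurons have medians of 1.60 to 1.82, and the 8 other lists have medians of −2.75 to −0.75.

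Golgi cells, which inhibit granule cells, were covered by 5 genes, and all 5 were called higher, beside 22% of all genes. Their median was 1.60, and in all 5 the IP and input libraries did not overlap, beside 39.8% of all genes. *Lgi2*, a secreted synaptic protein, was at 331, 394 and 454 CPM (lowest, median and highest IP) and 139.7, 150.5 and 100.4 CPM in the inputs (log2 fold change 1.60, SE 0.168, adjusted p = 1.68e-05). *Slc6a5*, the glycine transporter of neurons that release glycine, was at 66.0, 76.6 and 84.6 CPM in the IPs and 22.4, 34.7 and 21.6 CPM in the inputs. *Grm2*, a metabotropic glutamate receptor of Golgi cells, was at 87.7, 107 and 152 CPM in the IPs and 35.6, 31.7 and 39.9 CPM in the inputs. The last 2 had log2 fold changes of 1.52 (SE 0.185) and 1.65 (SE 0.194). For all 3 genes the IPs stood above the inputs without overlap. Sums of the list were 599.7 to 803 CPM in the IPs (median 683) and 231, 250.4 and 192 CPM in the inputs.

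Of 8 genes linked to basket and stellate cells, the interneurons that inhibit Purkinje cells, 7 were called higher, beside 22% of all genes. The median of the 8 was 1.74. *Grik3* (chromosome 4, 125490700 to 125714173), a kainate receptor subunit, was at 302, 344 and 419.9 CPM (lowest, median and highest IP) and 98.4, 122 and 91.7 CPM in the inputs. The IPs did not overlap with the inputs, and the log2 fold change was 1.76 (SE 0.173, adjusted p = 1.06e-05). *Kit*, a receptor tyrosine kinase of molecular layer interneurons, had a log2 fold change of 2.07 (SE 0.169), and *Nxph1*, a ligand of neurexins, of 2.05 (SE 0.194). *Kcna2*, a potassium channel subunit of basket cell terminals, had 1.28 (SE 0.229). *Kcna1*, its partner at the same terminals, was the member not called, at 19.8, 48.8 and 56.6 CPM in the IPs and 47.2, 94.0 and 49.2 CPM in the inputs (log2 fold change −0.52, SE 0.297, adjusted p = 0.174). Its IPs and inputs overlapped, and its highest value was in input replicate 2. With the input of both control lines, it was called lower (−0.57, adjusted p = 0.0344). *Pvalb*, a calcium buffer shared by these interneurons and Purkinje cells, had 1.73 (SE 0.242), with 2766, 3229 and 5037 CPM in the IPs and 1315, 791 and 1137 CPM in the inputs. The list summed to 4829.6 to 6774 CPM in the IPs (median 5583) and 1941, 1680.2 and 1729.5 CPM in the inputs, most of it from *Pvalb*.

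Granule cell genes made up the opposite side. All 16 of 16 were called lower, beside 21.6% of all genes, with a median of −1.93. In 15 of them the libraries did not overlap, beside 39.8% of all genes. *Cbln1*, which granule cell axons secrete to organise their synapses on Purkinje cells, was at 143, 214 and 220.1 CPM (lowest, median and highest IP) and 1198, 1088 and 1267 CPM in the inputs. *Slc17a7*, the vesicular glutamate transporter of granule cells, was at 101, 147 and 167 CPM in the IPs and 836, 755 and 852 CPM in the inputs. The highest IP was thus far below the lowest input for both, and the log2 fold changes were −2.56 (SE 0.147, adjusted p = 4.11e-07) and −2.51 (SE 0.153, adjusted p = 4.66e-07). *Rbfox3*, the neuronal nuclear antigen NeuN, which Purkinje cells lack, had −2.42 (SE 0.197), and *Calb2*, calretinin, had −2.47 (SE 0.283). *Zic1*, a zinc finger factor, had the smallest change of the list at −0.93 (SE 0.253, adjusted p = 0.0107), with overlapping groups. Its call was lost with the mouse as a block (−0.60, adjusted p = 0.0658) and without input replicate 2 (−0.69, adjusted p = 0.055). No member was at 0 in an IP, and the list still summed to 1473 to 2726 CPM in the IPs (median 2064), against 7897, 9767 and 8548 CPM in the inputs. The most abundant member in both was *Cbln3*, at a mean of 409 and 2101 CPM.

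The 3 genes of unipolar brush and nuclear glutamatergic neurons, *Eomes*, *Lmx1a* and *Slc17a6*, were called lower, beside 21.6% of all genes. Their median was −1.45, at sums of 3.57 to 18.2 CPM in the IPs (median 7.67) and 16.7, 32.8 and 19.6 CPM in the inputs. IP replicate 5, at 18.2 CPM, stood above the other IPs, whose highest was 8.58 CPM. Each of these calls was lost when any of several single libraries was left out, mostly at a log2 fold change close to that with all libraries. That of *Slc17a6*, the vesicular transporter vGluT2 (−1.45, adjusted p = 0.0308), was lost without IP replicate 1 (−1.33), 3 (−1.37) or 4 (−1.29), without input replicate 2 (−0.90) or 3 (−1.47), and with the mouse as a block (−0.89). That of *Eomes*, a T-box factor of unipolar brush cells (−1.29, adjusted p = 0.035), was lost without IP replicate 2 (−1.29), 3 (−1.33), 4 (−1.27) or 6 (−1.16) and without input replicate 1 (−1.24) or 2 (−1.25). That of *Lmx1a*, a LIM homeodomain factor of these cells (−2.01, adjusted p = 0.0305), was lost without IP replicate 2 (−1.89) or 6 (−1.85), without input replicate 1 (−1.83) or 2 (−2.03), and with the block (−1.72).

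Glial and vascular genes were lower too. Of 11 genes of astrocytes and Bergmann glia, the astrocytes that enwrap Purkinje dendrites, all 11 were called lower, beside 21.6% of all genes. Their median was −2.12. *Slc6a11*, a GABA transporter of astrocytes, was at 10.2, 11.7 and 15.4 CPM (lowest, median and highest IP) and 81.0, 116 and 102 CPM in the inputs, and *Apoe*, a lipid carrier, at 116, 294 and 343 CPM in the IPs and 1827, 1488 and 1672 CPM in the inputs. Neither gene overlapped between the groups, and the log2 fold changes were −3.04 (SE 0.159, adjusted p = 3.03e-07) and −2.68 (SE 0.283, adjusted p = 1.75e-05). The smallest change was that of *Hopx*, a homeodomain protein of Bergmann glia, at −0.81 (SE 0.171), with 98.1, 111 and 156 CPM in the IPs and 229.8, 171 and 226 CPM in the inputs. Sums ran from 663 to 1444 CPM in the IPs (median 1123) and were 5092, 5703 and 4800.3 CPM in the inputs. *Slc1a3* was the most abundant member in the IPs, at a mean of 286 CPM, and *Apoe* in the inputs, at 1662 CPM.

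All 10 oligodendrocyte genes were called lower (median −2.07), as were all 3 of oligodendrocyte precursors (median −1.87) and all 7 vascular genes (median −2.28). Of all genes, 21.6% were called lower. *Mbp*, a protein of the myelin sheath, was at 287, 395 and 448 CPM (lowest, median and highest IP) and 2052, 1753 and 2544 CPM in the inputs, and *Mog*, a protein on its surface, had a log2 fold change of −3.09 (SE 0.191). *Cldn5*, of the tight junctions of blood vessels, was at 2.59, 3.47 and 6.45 CPM in the IPs and 21.2, 29.4 and 26.0 CPM in the inputs. In none of these 20 genes did IPs and inputs overlap, beside 39.8% of all genes without overlap. The oligodendrocyte list summed to 715 to 1477 CPM in the IPs (median 1098) and 4032, 4284 and 4867 CPM in the inputs, led by *Mbp* in both. The precursor list summed to 6.97 to 19.2 CPM in the IPs and 35.6, 50.1 and 32.2 CPM in the inputs, led by *Pdgfra*. The vascular list summed to 29.0 to 62.8 CPM in the IPs (median 53.3) and 211, 241 and 181 CPM in the inputs, led by *Vtn*. No member of these lists was at 0 in an IP.

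Of 10 microglial genes, 2 were called lower, beside 21.6% of all genes, and none higher, with a median of −0.75. The calls were those of *Tmem119* (log2 fold change −1.06, adjusted p = 0.0194) and of *Csf1r*, the receptor that microglia need to survive (−0.87, adjusted p = 0.0406). Without input replicate 3 neither was called (−0.97, adjusted p = 0.074, and −0.81, adjusted p = 0.117), and that of *Csf1r* was also lost without IP replicate 1 (−0.81), IP replicate 4 (−0.78) or input replicate 1 (−0.88), and with the mouse as a block (−0.97). Across the list, 4 genes were called lower without IP replicate 2, with DESeq2 or with library size only, 1 without IP replicate 1 or 4 or input replicate 1, and 0 without input replicate 3. The list summed to 82.6 to 188 CPM in the IPs (median 122) and to 154, 167 and 182 CPM in the inputs, and *Trem2* was at 0 in an IP. Without IP replicate 5, *Trem2* was called lower as well (−0.83, adjusted p = 0.039). With the input of both control lines, *C1qa*, *Cx3cr1* and *P2ry12* gained a call, and *Tmem119* and *Csf1r* kept theirs.

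Genes of the choroid plexus, the epithelium that secretes cerebrospinal fluid, varied widely within each preparation. None of 4 was called, with a median of −2.75, but 2 were without IP replicate 3, 3 with library size only, and all 4 without input replicate 3 or with the mouse as a block. *Ttr*, the transthyretin gene, was at 2.54, 183 and 486 CPM (lowest, median and highest IP) and 4417, 1865 and 30.1 CPM in input replicates 1, 2 and 3 (log2 fold change −3.38, SE 1.32, adjusted p = 0.0543). Input replicate 3 thus held less *Ttr* than most IPs, and without it the gene was called (−3.96, adjusted p = 0.0293), as it was with the mouse as a block (−3.01, adjusted p = 0.00258). Without input replicate 1 the change was −2.23. *Kcne2*, a potassium channel subunit of this epithelium, was likewise called without input replicate 3 (−3.36, adjusted p = 0.0351) and with the block (−2.10, adjusted p = 0.018). With the input of both control lines, *Ttr* (−3.03, adjusted p = 0.025) and *Kcne2* (−2.44, adjusted p = 0.0433) were called lower. The list summed to 3.46 to 514 CPM in the IPs (median 191) and 4520.0, 1936 and 33.4 CPM in the inputs, nearly all of it *Ttr*, and *Kcne2* was at 0 in an IP.

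Markers of forebrain GABA neurons were used as a list from another region. None of its 6 genes, *Dlx1*, *Dlx2*, *Dlx5*, *Dlx6* and *Lhx6* among them, had enough counts to be tested. Their sum was 0 to 0.0568 CPM in the IPs (median 0.012) and 0.146, 0.283 and 0.845 CPM in the inputs, and 4 of the 6 were at 0 in every IP. The part of glial, granule cell and choroid plexus RNA in the results that follow was not tested.

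**Figure D2:**
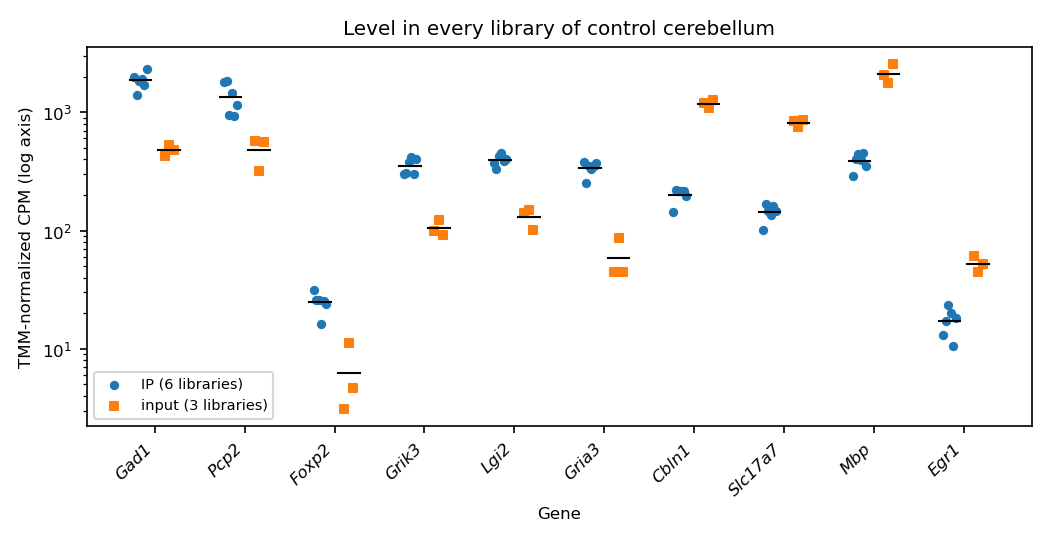
TMM-normalized CPM (log axis) of 10 genes in each of the 6 IP libraries (circles) and 3 input libraries (squares) of control cerebellum, with the mean of each group as a bar. IP and input libraries are apart for each of the 10, *Cbln1* for example lying between 143 and 220.1 CPM in the IPs and at 1088 to 1267 CPM in the inputs.

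Purkinje cells answer climbing and parallel fibre input in part through Gq proteins and phospholipase C, which release calcium from internal stores. Of 10 genes of this cascade, 9 were called higher and 1 lower, beside 22% and 21.6% of all genes, with a median of 1.54. Of the 10, 7 were members of the Purkinje list as well, all called higher, so this part of the count restates that of the Purkinje list. Of the other 3, *Dagla* and *Gnaq* were called higher and *Gna11* lower, with a median of 0.62, and without input replicate 1 or 3 only *Dagla* was called. *Itpr1*, the channel that releases calcium from the endoplasmic reticulum, was at 4802, 8915 and 11125 CPM (lowest, median and highest IP) and 1893, 2407 and 1248 CPM in the inputs (log2 fold change 2.21, SE 0.285, adjusted p = 7.23e-05). *Car8*, which binds that channel, was at 2995, 3697 and 4176 CPM in the IPs and 890.3, 1178 and 1091 CPM in the inputs (1.78, SE 0.158). For both genes each IP stood above each input. *Homer3*, a scaffold of the postsynaptic density, had a log2 fold change of 1.55 (SE 0.235), and *Dagla*, which makes an endocannabinoid, of 1.04 (SE 0.188).

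The 2 Gq family subunits of this cascade went opposite ways. *Gnaq* was at 221, 261 and 279.7 CPM (lowest, median and highest IP) and 142, 219 and 137 CPM in the inputs (log2 fold change 0.62, SE 0.171, adjusted p = 0.0113), while *Gna11* was at 82.8, 91.1 and 108 CPM and at 125, 109.7 and 143 CPM (−0.45, SE 0.135, adjusted p = 0.0179). Neither overlapped between the groups. Leaving out input replicate 1 or 3 ended both calls, with *Gnaq* at 0.51 (adjusted p = 0.0684) and 0.49 (adjusted p = 0.0669), and *Gna11* at −0.45 (adjusted p = 0.0532) and −0.35 (adjusted p = 0.0951). *Dagla*, *Car8*, *Itpr1* and the other members named above kept their calls whichever library was left out.

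Among 17 subunits of ionotropic glutamate receptors, 11 were called higher and 3 lower, beside 22% and 21.6% of all genes, with a median of 1.11. Among the 14 that were in no cell type list, 9 were higher and 2 lower. Without IP replicate 5, or with DESeq2 or library size only, 5 of the 17 were called lower. AMPA receptor subunits split. *Gria3* was at 251, 349 and 376 CPM (lowest, median and highest IP) and 44.8, 87.1 and 44.5 CPM in the inputs (log2 fold change 2.52, SE 0.248, adjusted p = 1.04e-05). *Gria2*, the subunit that keeps calcium out, had 1.91 (SE 0.236). *Gria1* was lower, at 243, 275 and 318 CPM in the IPs and 513, 555 and 353 CPM in the inputs (−0.76, SE 0.154, adjusted p = 0.00182), and *Gria4* was at 232, 260.0 and 331 CPM and 216, 399 and 233 CPM (−0.07, SE 0.2, adjusted p = 0.785). Only *Gria4* of these 4 overlapped between IP and input. The delta receptor *Grid1* had a log2 fold change of 1.47 (SE 0.159).

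Kainate receptor subunits also split, *Grik1* at a log2 fold change of 2.04 (SE 0.152) and *Grik4* at 1.04 (SE 0.16) being higher, and *Grik2*, at 8.74, 12.2 and 24.1 CPM in the IPs (lowest, median and highest) and 41.9, 59.7 and 38.4 CPM in the inputs, lower at −1.66 (SE 0.298, adjusted p = 0.000793). Of the NMDA receptor genes, *Grin1*, the obligatory subunit, rose by 0.82 (SE 0.192), *Grin2d* by 1.65 (SE 0.169) and *Grin3a* by 1.16 (SE 0.17). *Grin2c*, the subunit of mature granule cells, was lower at −1.89 (SE 0.153, adjusted p = 2.62e-06), with 42.4, 51.2 and 65.2 CPM in the IPs and 179.9, 177 and 227 CPM in the inputs. No IP of *Grik2* or *Grin2c* reached an input.

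Receptors for GABA and glycine did not move together. Of 17 subunits, 4 were called higher and 3 lower, 7 of 17 against 43.6% of all genes, and the median was 0.14, which was −0.11 without input replicate 1 and 0.56 without input replicate 2. *Gabra3*, an alpha subunit, was higher by a log2 fold change of 1.60 (SE 0.176). *Gabra6*, the alpha subunit of granule cells, was lower, at 79.9, 127 and 194 CPM (lowest, median and highest IP) and 303, 588 and 434 CPM in the inputs (−1.75, SE 0.275, adjusted p = 0.000308), and *Gabrd*, its partner in receptors outside synapses, at 85.0, 89.9 and 96.7 CPM and 209, 187 and 252 CPM (−1.26, SE 0.126). No IP of these 2 genes reached an input.

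Of 19 potassium channel genes, 11 were called higher and 3 lower, beside 22% and 21.6% of all genes, with a median of 0.71. Among the 11 were *Kcnab3*, at a log2 fold change of 1.71 (SE 0.157), and *Kcna6*, at 1.30 (SE 0.175). *Kcnma1*, the calcium-activated BK channel of Purkinje cells, was at 369, 465 and 487 CPM (lowest, median and highest IP) and 120.3, 215 and 84.8 CPM in the inputs (1.69, SE 0.251, adjusted p = 0.000205), without overlap. *Kcnc1*, a fast delayed rectifier that granule cells use too, was lower, at 293, 359 and 408 CPM in the IPs and 621, 786 and 770.4 CPM in the inputs (−1.05, SE 0.141, adjusted p = 0.000101). *Kcnn2*, a small-conductance channel, was lower at −0.76 (SE 0.163). Of 8 sodium channel genes, 3 were called higher and 1 lower, beside 22% and 21.6% of all genes, with a median of 0.44. *Scn4b*, the subunit of resurgent current, had 1.25 (SE 0.16), and *Scn2a* was the lower one, at 45.2, 54.2 and 74.5 CPM in the IPs and 119.7, 278 and 111 CPM in the inputs (−1.54, SE 0.274, adjusted p = 0.000736). The median of the sodium channels was 0.13 without IP replicate 5, 0.17 without input replicate 3 and 0.73 without input replicate 2. The higher and lower calls were 1 and 1 without input replicate 1, 4 and 2 without input replicate 2, and 2 and 2 with the mouse as a block.

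Of 15 calcium channel genes, 4 were called higher and 4 lower, beside 22% and 21.6% of all genes, with a median of 0.21. *Cacna1g*, the T-type channel of Purkinje cells, was at 765, 952 and 1389 CPM (lowest, median and highest IP) and 414, 387 and 397 CPM in the inputs (log2 fold change 1.30, SE 0.189, adjusted p = 0.000178), and *Cacna2d2*, the auxiliary subunit of Purkinje P-type channels, had 1.25 (SE 0.159). *Cacna2d3*, a related auxiliary subunit, was at 133, 162 and 219.5 CPM in the IPs and 36.7, 34.3 and 18.9 CPM in the inputs (2.48, SE 0.24, adjusted p = 9.33e-06). *Cacna1i*, another T-type channel, was lower at −1.99 (SE 0.181), and *Cacna1c*, an L-type channel, at −1.39 (SE 0.231). *Cacna1a*, the pore of the P/Q-type channel, did not pass the test, at 267, 358 and 482 CPM in the IPs and 285, 315 and 289 CPM in the inputs (0.28, SE 0.175, adjusted p = 0.213). Its IPs covered the range of its inputs. With the input of both control lines, it was called higher (0.36, adjusted p = 0.0226).

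Of 11 genes for calcium binding proteins, 7 were called higher and 3 lower, beside 22% and 21.6% of all genes. The median of the 11 was 0.90, and 0.57 with the mouse as a block. Without *Calb1*, *Pcp4*, *Pvalb* and *Calb2*, which were also in the cell type lists, 4 of 7 were called higher and 2 lower, with a median of 0.64. *Pcp4*, a calmodulin regulator of Purkinje cells, had a log2 fold change of 1.79 (SE 0.25), *Hpca*, hippocalcin, of 1.91 (SE 0.201) and *Hpcal4* of 1.27 (SE 0.142). The lower ones were *Calb2*, *Ncald*, neurocalcin delta, at −2.03 (SE 0.219), and *Vsnl1*, visinin-like 1, at −1.31 (SE 0.145). Of 12 genes for proteins of vesicle fusion, 4 were called higher and 2 lower, beside 22% and 21.6% of all genes, and 2 each with the mouse as a block or library size only. Their median of 0.17 was 0.02 without input replicate 2, 0.07 without input replicate 1, 0.06 without IP replicate 5 and 0.08 without IP replicate 2. Complexins, which clamp fusion until calcium arrives, went opposite ways. *Cplx1* was at 1158, 1291 and 1904 CPM (lowest, median and highest IP) and 878, 744 and 891 CPM in the inputs (0.75, SE 0.181, adjusted p = 0.00517), and *Cplx2* at 255, 529.9 and 620.3 CPM and 1501, 1315 and 1385 CPM (−1.55, SE 0.238, adjusted p = 0.000264). The IPs of *Cplx1* stood above its inputs and those of *Cplx2* below. *Syt7*, a slow calcium sensor, had 0.70 (SE 0.126), and *Syt1*, the fast one of many forebrain and granule cell synapses, −0.86 (SE 0.147).

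Of 15 transcription factors of GABA neuron lineages, 14 had enough counts to be tested. *Ptf1a*, which commits cerebellar progenitors to a GABA fate in the embryo, was the other, at 0 in all 6 IPs. Of the 14, 13 were called higher and 1 lower, beside 22% and 21.6% of all genes, with a median of 1.48. The cell type lists above held 7 of these genes, all called higher, and of the other 7, 6 were called higher and 1 lower. *Tfap2b*, an AP-2 factor of molecular layer interneurons, was at 186, 194 and 205 CPM (lowest, median and highest IP) and 46.9, 65.4 and 47.9 CPM in the inputs (log2 fold change 1.87, SE 0.15, adjusted p = 2.36e-06). *Skor2*, a corepressor of Purkinje cells, was at 25.2, 34.4 and 61.5 CPM in the IPs and 11.6, 7.53 and 10.8 CPM in the inputs (1.96, SE 0.295, adjusted p = 0.00022). *Pax2*, a factor of immature interneurons and Golgi cells, was at 28.3, 37.2 and 42.5 CPM in the IPs and 13.8, 10.5 and 14.5 CPM in the inputs (1.47, SE 0.181). In all 3 the IPs and inputs were apart. *Lhx5* had 1.79 (SE 0.246) and *Lhx1* 1.09 (SE 0.136), the LIM homeodomain factors of Purkinje cells.

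*Rora*, the nuclear receptor lost in staggerer mice, was at 320.3, 501 and 553 CPM in the IPs (lowest, median and highest) and 118, 355 and 135 CPM in the inputs (log2 fold change 1.20, SE 0.33, adjusted p = 0.0109). Input replicate 2 lay within the range of the IPs, and the call was lost without input replicate 1 (0.92, adjusted p = 0.0514) or input replicate 3 (0.98, adjusted p = 0.0609). *Foxp1* was the factor called lower, at −0.77 (SE 0.197), beside 1.18 (SE 0.197) for its relative *Foxp4* and the value of *Foxp2* given above.

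*Rora* and *Esrrb*, both in the Purkinje list and both higher in the IP, encode nuclear receptors that bind extended forms of the core site AGGTCA. As a description, the 250 bases upstream of each gene were searched for AGGTCA and for TCAAGGTCA, which contains it, on both strands. The start used was that given first for each gene in the promoter sequences of RefSeq (GRCm38.p6). Of the 22 genes, 11 matched a promoter. AGGTCA was in 4 of these 11, against 3740 of 27025 promoters in all (13.8%), in 1 of 5 of the Golgi list, 0 of 7 of the basket and stellate list and 2 of 13 of the granule list. TCAAGGTCA was in 99 of all promoters (0.366%) and in 0 of the 11. Matches are a description of these letters, no binding was measured, and control of the list by these receptors was not tested. The 4 windows are shown with the match in capitals, 5′ to 3′ on the strand of the gene, since they belong to genes higher in the IP.
Dner, chr1:84696222-84696471, minus strand: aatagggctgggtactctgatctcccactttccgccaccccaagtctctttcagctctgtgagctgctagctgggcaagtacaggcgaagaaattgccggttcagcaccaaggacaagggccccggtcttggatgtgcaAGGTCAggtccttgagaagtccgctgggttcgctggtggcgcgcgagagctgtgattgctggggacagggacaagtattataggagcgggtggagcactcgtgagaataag
Homer3, chr8:70282749-70282998, plus strand: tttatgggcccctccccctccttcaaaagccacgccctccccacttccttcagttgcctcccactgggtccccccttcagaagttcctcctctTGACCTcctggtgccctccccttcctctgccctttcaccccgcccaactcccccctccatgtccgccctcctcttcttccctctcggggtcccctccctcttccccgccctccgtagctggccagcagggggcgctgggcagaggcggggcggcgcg
Pcp2, chr8:3625548-3625797, minus strand: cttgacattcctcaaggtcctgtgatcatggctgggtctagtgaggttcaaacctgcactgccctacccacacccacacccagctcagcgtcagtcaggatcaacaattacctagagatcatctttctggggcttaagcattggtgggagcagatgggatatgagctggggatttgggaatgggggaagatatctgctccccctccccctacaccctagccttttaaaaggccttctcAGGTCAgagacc
Pcp4, chr16:96467356-96467605, plus strand: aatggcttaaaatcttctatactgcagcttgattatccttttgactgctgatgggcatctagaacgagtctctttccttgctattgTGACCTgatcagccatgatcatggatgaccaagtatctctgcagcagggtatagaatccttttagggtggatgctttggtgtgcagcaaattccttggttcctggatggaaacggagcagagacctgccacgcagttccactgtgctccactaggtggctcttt

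The highest log2 fold changes, among called genes with groups apart and a mean of at least 10 CPM in the higher group, included 3 already named (*Gria3*, *Cacna2d3*, *Calb1*). *Cog7*, a part of the Golgi complex that sorts glycosylation enzymes, was at 309, 426 and 518 CPM (lowest, median and highest IP) and from 50.3 to 57.5 CPM in the inputs (log2 fold change 2.92, SE 0.207, adjusted p = 1.16e-06). *Ahdc1*, an AT-hook protein, was at 323, 375 and 525 CPM in the IPs and 63.3, 72.5 and 72.3 CPM in the inputs (2.48, SE 0.184, adjusted p = 1.41e-06). Both were well apart between the groups. *Nexn*, an actin binding protein, had 2.52 (SE 0.234), *Tnni3*, troponin I of heart muscle, 2.46 (SE 0.341), *Sla*, an adaptor protein, 2.43 (SE 0.163), *Serpini1*, neuroserpin, 2.38 (SE 0.269), *Lsmem1* 2.31 (SE 0.312), *Akr1b7* 2.26 (SE 0.273), *Nrk* 2.26 (SE 0.292) and *Tm6sf1* 2.24 (SE 0.162). The gene with the highest value, at 7.63 (SE 0.696), was an entry with the symbol *Chtf8* (ENSMUSG00000117748.1) that lies within another gene of that symbol on the same strand, so that its reads cannot be assigned with certainty.

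Of the 15 genes with the lowest log2 fold changes, 13 were the protein-coding genes of the mitochondrial genome and 2 were globins. All 13 mitochondrial genes were called lower, beside 21.6% of all genes, with a median of −5.88. *mt-Co1*, a subunit of cytochrome c oxidase, was at 282, 503 and 665 CPM (lowest, median and highest IP) and 11959, 29398 and 12046 CPM in the inputs (log2 fold change −5.15, SE 0.31, adjusted p = 4.44e-07). *mt-Co2* was at 7.21, 22.1 and 173 CPM in the IPs, where the highest was IP replicate 5, and 919.6, 933 and 921 CPM in the inputs. The 13 genes summed to 519 to 1439.7 CPM in the IPs and 28729, 83601 and 41305 CPM in the inputs. Their mRNAs are translated inside mitochondria by ribosomes that lack Rpl22. The globin genes *Hbb-bt*, at −4.17 (SE 0.536), and *Hba-a1*, at −4.15 (SE 0.73), share sequence with their neighbours, so the split of reads among the copies is uncertain. Of 68 nuclear genes of oxidative phosphorylation, 28 were called higher, beside 22% of all genes, and 1 lower, with a median of 0.42. Their higher calls fell to 13 without input replicate 2, where 2811 of all 14111 genes were called higher, to 18 with the mouse as a block (2331 of 14220) and to 12 with library size only (2027 of 14147), and lay nearer the share of all genes there. The median was 0.18, 0.22 and 0.26 in that order. The input of both control lines went the other way, with 3885 of 14378 genes called higher. No member of the list lost its call there, and *Atp5d*, *Cox5b*, *Ndufa1*, *Uqcrq* and others gained one. The lower one, *Cox8a*, another subunit of cytochrome c oxidase (−0.63, adjusted p = 0.034), lost its call without IP replicate 3 (−0.56) or 6 (−0.55) and without input replicate 1 (−0.52) or 3 (−0.60).

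Messages for cytosolic ribosomal proteins were lower, 63 of 76 called, beside 21.6% of all genes, and none called higher, with a median of −0.93. They summed to 8968 to 13916 CPM in the IPs (median 10357) and 23185, 15664 and 18396 CPM in the inputs, without overlap. *Rps12* had the lowest log2 fold change of them at −1.97. *Rpl22*, the gene that carries the tag, was at 76.9, 85.8 and 103 CPM in the IPs (lowest, median and highest) and 107, 80.9 and 89.1 CPM in the inputs (−0.09, SE 0.145, adjusted p = 0.632), and its groups overlapped.

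RNAs that stay in the nucleus were read from a fit over all gene types, in which 3257 of 15824 genes were called lower (20.6%). Of 8 such noncoding RNAs, 5 were called lower and none higher, with a median of −0.96, against 0.04 over all genes of that fit. *Malat1*, of nuclear speckles, was at 4.76, 14.1 and 45.8 CPM (lowest, median and highest IP) and 312, 541 and 201 CPM in the inputs (log2 fold change −4.02, SE 0.576, adjusted p = 0.000204). *Meg3* was at 30.0, 60.9 and 131 CPM in the IPs and 187, 211 and 181 CPM in the inputs (−1.54, SE 0.34, adjusted p = 0.0036). No IP of either reached an input. *Snhg11*, by contrast, was at 45.6, 54.5 and 106 CPM in the IPs and 52.4, 44.9 and 80.1 CPM in the inputs, and was not called.

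Immediate early genes, which neuronal activity switches on within minutes, gave 0 of 8 called higher and 2 lower, beside 21.6% of all genes called lower. Their median of −0.73 was 0.03 without input replicate 1, −1.45 without IP replicate 3, −1.32 without input replicate 2 and −1.10 with the mouse as a block. In each of the last 3 fits, 3 genes were called lower. *Egr1* was at 10.6, 17.6 and 23.3 CPM (lowest, median and highest IP) and 60.5, 44.3 and 51.7 CPM in the inputs (log2 fold change −1.61, SE 0.216, adjusted p = 9.77e-05), and *Arc* had −1.36 (SE 0.206). *Fos* varied within the groups, from 2.32 to 57.3 CPM in the IPs (median 4.43) and at 65.3, 3.12 and 11.2 CPM in the inputs. Its highest input, replicate 1, and its highest IP, replicate 3, came from the same mouse. The call that the mouse block added was that of *Nr4a1* (−1.46, adjusted p = 0.00817, and −1.31, adjusted p = 0.198, without the block).

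Levels of different genes were compared per kilobase of exon. In the IPs, *Pvalb* was the most abundant gene at a mean of 3434 CPM per kb, followed by *Ckb*, brain creatine kinase, at 1733, *Pcp4* at 1682, *Calm2*, a calmodulin gene, at 1656, and *Atp1b1*, a subunit of the sodium pump, at 1508 CPM per kb. *Aldoc*, the zebrin antigen found in stripes of Purkinje cells and in astrocytes, was at 1428, *Ubb*, ubiquitin, at 1298, *Nsg1* at 1048 and *Stmn3*, a stathmin, at 1041 CPM per kb. All of these but *Ubb* were called higher in the IP, *Atp1b1* by a log2 fold change of 1.70 (SE 0.181) and *Aldoc* by 0.98 (SE 0.174). With the input of both control lines, *Ubb* was called higher too (0.50, adjusted p = 0.0168). Across the 14147 genes, the log2 fold change of the IP had a Spearman correlation of 0.02 with exon length and of −0.19 with GC content (0.14 and −0.30 in the fit with the mouse as a block). With genes in 4 equal groups by GC content, the median was 0.27 in the lowest group and −0.13 in the highest. Genes are not independent replicates, and what GC content adds to these values was not tested.

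The same contrast in the cerebellum of HD mice of the Gad2 line (6 IP and 3 input libraries of other mice) called 2692 of 14288 genes higher (18.8%) and 3546 lower (24.8%), and without input replicate 1 of the HD mice 1725 higher and 2798 lower. HD IP replicate re1, at 93692505 counts, was by its label a library sequenced again. Without it, 2299 genes were called higher and 3198 lower. With all HD libraries, 4999 genes were called in the same direction as in controls, 81% of the calls in controls and 80.1% of those in HD mice, and none was called in the opposite direction. All 22 Purkinje genes, all 5 Golgi genes and 7 of 8 basket and stellate genes were again called higher, with medians of 1.80, 1.68 and 1.90, and all 16 granule cell genes lower, with a median of −2.02. *Pcp2* had a log2 fold change of 1.55, *Foxp2* of 2.62 and *Grik3* of 1.98 in HD mice. Microglial genes were called lower in 8 of 10, against 2 of 10 in controls, at medians of −1.18 and −0.75. Whether the contrast differs between genotypes was not tested.

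**Figure D3:**
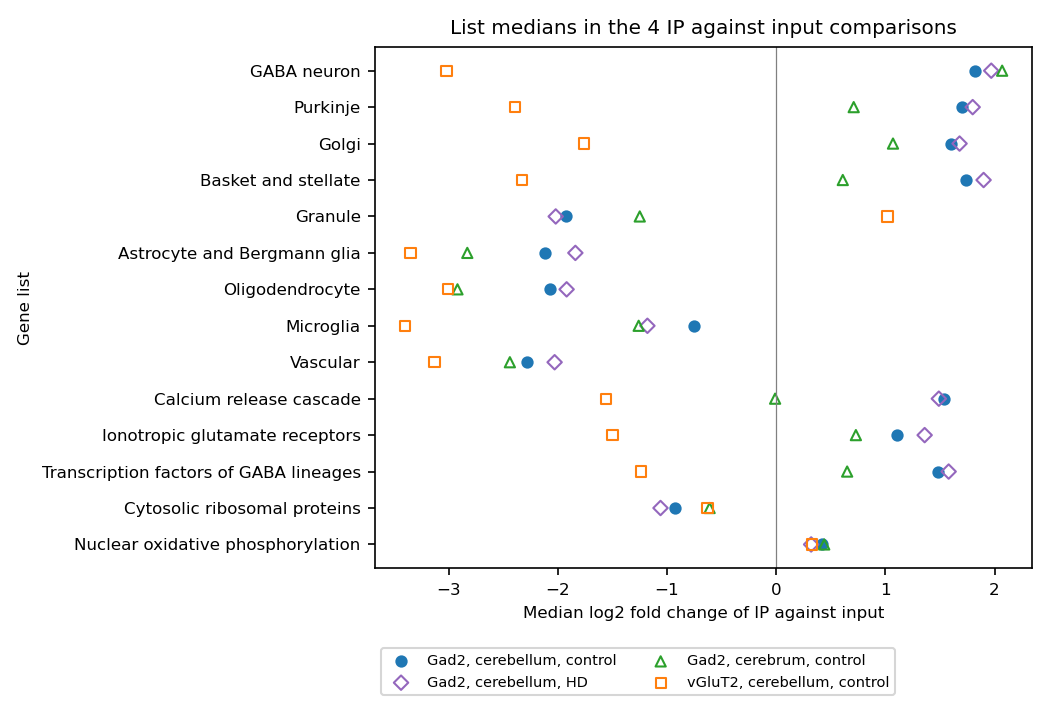
Median log2 fold change of IP against input for 14 gene lists in 4 comparisons, 1 symbol each for the control Gad2 cerebellum, the HD Gad2 cerebellum, the control Gad2 cerebrum and the control vGluT2 cerebellum. Purkinje genes have medians of 1.70, 1.80, 0.71 and −2.39 in that order, and granule cell genes −1.93, −2.02, −1.25 and 1.02.

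The IP of the vGluT2 line (5 IP and 4 input libraries of control cerebellum) reached the glutamatergic side of the same tissue. The ratio of IP to input was larger in the Gad2 line than in the vGluT2 line for 2823 of 14267 genes (19.8%) and smaller for 2409 (16.9%), by the same test applied to the interaction. Without IP replicate 5 of the Gad2 line, these counts were 2854 and 2690. It was larger for all 4 GABA genes, 21 of 22 Purkinje genes, all 5 Golgi genes and 7 of 8 basket and stellate genes, and smaller for all 16 granule cell genes. The median differences of log2 ratios were 4.76, 4.07, 3.34, 4.08 and −3.04 in that order, against 0.05 over all genes. *Pcp2*, at 11.6, 16.5 and 26.8 CPM in the vGluT2 IPs (lowest, median and highest), differed by 5.84 (SE 0.394, adjusted p = 1.45e-09), and *Grik3* by 3.81 (SE 0.32, adjusted p = 2.11e-08). *Foxp2, by line*, differed by 3.19 (SE 1.12, adjusted p = 0.031), with vGluT2 IPs from 0.797 to 18.5 CPM and a median of 0.944, so that 1 of them, replicate 5, lay far above the rest. Without that library the difference was 5.31. Its call was lost with the mouse as a block (adjusted p = 0.0833), without input replicate 1 (2.83) or 3 (adjusted p = 0.0826) of the Gad2 line, and without input replicate 4 of the vGluT2 line (2.69).

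Among the highest differences between the lines, beside *Pcp2* and the uncertain *Chtf8* entry (6.01), were those of *Il22*, an interleukin gene, at 6.06, *Gng13*, a G protein gamma subunit, at 5.85, and *Ppp1r17* at 5.72. Among the lowest were *Tlx3* and *Calb2*, both −4.26, *Uncx* at −4.22, *Tmem163* at −4.17 and *Irx3* at −4.08. *Il22* was at 37.6, 48.8 and 76.2 CPM in the Gad2 IPs (lowest, median and highest) and at most 1.46 CPM in the vGluT2 IPs, while *Tlx3*, a homeodomain factor of the granule cell lineage, was at most 2.49 CPM in the former and 13.3 to 33.9 CPM in the latter. The IPs of the lines did not overlap for either gene. All 10 microglial genes had a larger ratio in the Gad2 line, with a median difference of 2.51, and so did 3 of 11 astrocyte, 3 of 10 oligodendrocyte and 3 of 7 vascular genes, beside 19.8% of all genes.

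*Cog7* and *Ahdc1* were higher than input in each of the 3 control IPs compared here. *Cog7* had a log2 fold change of 2.06 in the vGluT2 IP, 2.66 in the cerebral Gad2 IP and 2.92 in the cerebellar Gad2 IP, and *Ahdc1* had 2.17, 2.82 and 2.48 in that order. Against the vGluT2 line, the ratio was larger for *Cog7* by 0.80 (SE 0.207, adjusted p = 0.00483). For *Ahdc1* the difference of 0.24 (SE 0.207, adjusted p = 0.384) did not pass.

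In the cerebrum, the IP of the Gad2 line was made from the same 6 mice and compared with 3 inputs. The ratio of IP to input was larger in cerebellum than in cerebrum for 875 of 14630 genes (5.98%) and smaller for 832 (5.69%). With the mouse as a block within each region, these counts were 339 and 699. That fit kept only mice with both preparations in a region. No fit paired the cerebellum and cerebrum of a mouse. The counts were 1053 and 926 without cerebellar IP replicate 5, and 1217 and 1554 without input replicate 1 of the cerebrum. Of the GABA genes 1 of 4 had a larger ratio in cerebellum and 0 a smaller one, although the median difference was −0.20. Of the Purkinje genes 4 of 22 had a larger ratio in cerebellum, of the Golgi genes 2 of 5 and of the basket and stellate genes 4 of 8, with medians of 0.85, 0.43 and 0.74. *Grik3* differed by 1.43 (SE 0.258, adjusted p = 0.000898), from 302 to 419.9 CPM in cerebellar and 85.4 to 160.2 CPM in cerebral IPs. *Grm2* differed by 3.37 (adjusted p = 9.47e-07), since its log2 fold change was 1.65 in cerebellum and −1.73 in cerebrum. *Pcp2* (0.23, SE 1.86) and *Foxp2* (−0.25, SE 0.684) did not pass the test.

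Among the highest differences between the regions were those of *Neurod6* (5.53), the uncertain *Chtf8* entry (4.67), *Adcyap1*, the neuropeptide PACAP (3.81), *Bhlhe22* (3.79) and *Cdh1*, E-cadherin (3.69). The call of *Chtf8, by region*, was lost when any 1 library was left out other than cerebellar IP replicates 3 and 5 and cerebral input replicate 1, at values down to 4.31, and turned to −0.67 (adjusted p = 0.817) without cerebral input replicate 2. With the mouse as a block it was 1.39 (adjusted p = 0.743). *Neurod6*, a factor of cortical excitatory neurons, was at 12.3, 14.1 and 22.3 CPM in cerebellar IPs (lowest, median and highest) above 3.18, 3.06 and 4.31 CPM in the inputs, and at 2.47 to 10.3 CPM in cerebral IPs under 42.1 to 57.6 CPM in their inputs. *Bhlhe22*, another basic helix-loop-helix factor, was at 197, 256 and 343 CPM in cerebellar IPs and 44.8 to 78.1 CPM in the inputs. Both genes were thus higher in the cerebellar IP and lower in the cerebral IP than in input. Among the lowest were *Adora2a* (−4.97), *Moxd1* (−4.70), *Npy* (−4.47) and *Lhx6*, genes of forebrain GABA neurons. The 6 genes of the forebrain GABA list, *Lhx6* included, had a median difference of −5.19, so members of it lay below *Adora2a*. *Adora2a* and *Moxd1* were at 0 in cerebellar IP replicate 5. *Lhx6* was at 0 in 4 of 6 cerebellar IPs and at most 0.0284 CPM in the others, so the size of its difference depends on counts near 0 and is uncertain.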

How the data were processed

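RNA was sequenced from anti-HA immunoprecipitates (IP) and from input of the same tissue. Per the notes of the submitters, reads were aligned to GRCm38.p6 with STAR and quantified with Salmon, and the deposited table holds estimated counts per gene (8.57% of its values are not whole numbers). The table has 55401 mouse genes and 92 spike-ins. Genes were matched to GENCODE M21, and protein-coding genes with a mean count above 10 over the libraries compared were tested. Counts were scaled by TMM and fitted with edgeR's quasi-likelihood test (edgeR 4.0.16, limma 3.58.1, R 4.3.3), with Benjamini-Hochberg adjustment and calls at 0.05. CPM is the count divided by the TMM-scaled library size, as edgeR's cpm function gives it. SE is the size of the log2 fold change divided by the root of the F statistic. Tables came from pandas 2.3.3 and numpy 2.4.6 under Python 3.11.15, and figures from matplotlib 3.10.9.

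The comparison was IP (6 libraries) against input (3 libraries) in control cerebellum of the Gad2 line. Differences of this ratio from that of the vGluT2 line and of the cerebrum were tested as interactions, and the same contrast was fitted in HD mice. In the main comparison, depth of 28961145 counts or more per library made counting error small beside the spread of replicates. The chi-square per degree of freedom was at least 22.8 between IP libraries. Between inputs it was 62.0 for replicates 1 and 3, and 189 and 152 for the pairs with replicate 2. In the groups of the other contrasts, depth went down to 25849582 counts. Mouse numbers in the labels pair input replicates 1, 2 and 3 with IP replicates 3, 5 and 6, and the replicate numbers of the titles do not pair mice. Across genes, deviations from the group mean correlated at −0.16, 0.32 and 0.04 within these mice. Between IPs and inputs of different mice the values ran from −0.53 to 0.53. These few pairs cannot show whether pairing matters. The main fit used no block and kept all 6 IPs.

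Genes named were the 3 markers, members of 27 lists (382 genes, some in more than 1 list), and the 10 most abundant per kilobase. Also named were the 15 highest and 15 lowest log2 fold changes among called genes with groups apart and at least 10 CPM in the higher group. From each interaction, 5 genes among the highest and 5 among the lowest were named. Some genes that this choice covers are not reported here, and counts and medians of lists include them. Members and lists were chosen with earlier results of these data known. *Trem2*, *Kcne2*, *Cox8a* and other members of counts of 5 or fewer were singled out after their values were seen. Alternatives tried were DESeq2 1.42.0 and its size factors, library size only, no filter, filterByExpr, all gene types, a block for the mouse or for the title number, glmTreat, the input of both control lines together, and leaving out each library. The fits were tested on simulated data. Promoter sequences came from RefSeq.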

Additional observations from a re-analysis of the deposited data

Results flagged for a closer look

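Of 71 groups of 6 IP values checked for a library far from the others, 7 had one, and chance gives about 1 in 20 groups. IP replicate 4 was high for *Ahdc1*, at 525 CPM where the other 5 IPs held 323 to 394 CPM. IP replicate 2 was low for *Gria3*, at 251 CPM against 331 to 376 CPM, and for *Kcnma1*, at 369 CPM against 445 to 487 CPM. IP replicate 1 was low for *Cbln1*, at 143 CPM against 197 to 220.1 CPM. IP replicate 5 was high in 3 values: *mt-Co2* at 173 CPM against 7.21 to 33.1 CPM, the sum of unipolar brush and nuclear glutamatergic genes at 18.2 CPM against 3.57 to 8.58 CPM, and ribosomal RNA genes at 21.8% of counts against 0.967% to 1.81%. The causes were not tested.

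The ratio of IP to input differed between the Gad2 and vGluT2 lines, by edgeR's quasi-likelihood test of the interaction, for 5232 genes. The differences of log2 ratios were 6.06 for *Il22*, 6.01 for the uncertain *Chtf8* entry, 5.85 for *Gng13*, 5.84 for *Pcp2*, 5.72 for *Ppp1r17*, 4.46 for *Gad2*, 3.81 for *Grik3* and 3.19 for *Foxp2*, and −4.26 for *Tlx3* and for *Calb2*, −4.22 for *Uncx*, −4.17 for *Tmem163* and −4.08 for *Irx3*. Between cerebellum and cerebrum the ratio differed for 1707 genes by the same test. The differences were 5.53 for *Neurod6*, 4.67 for the *Chtf8* entry, 3.81 for *Adcyap1*, 3.79 for *Bhlhe22*, 3.69 for *Cdh1* and 1.43 for *Grik3*, and −6.03 for *Lhx6*, −4.97 for *Adora2a*, −4.70 for *Moxd1* and −4.47 for *Npy*. *Lhx6* was at 0 in 4 of 6 cerebellar IPs, so the size of its difference is uncertain.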

How the results depend on the processing

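The 6169 calls ran from 4731 to 6864 when each library was left out, those higher from 2230 to 3027, those lower from 2501 to 3877 and those past 2-fold from 2784 to 3615. By line, the calls ran from 4504 to 5595, by region from 1244 to 2771 (without cerebral input replicate 1), and in HD mice from 4523 to 7180. Library size only called 2027 genes higher. Testing against 2-fold by glmTreat left 1288 of 3188 calls. With the input of both control lines, 8214 genes were called (3885 higher, 4329 lower). Of 401 named genes tested, 363 then had the same call, 36 gained one, *Rps2* and *Scn3b* lost it and 0 reversed.

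With the mouse as a block, 4558 genes were called (2331 higher, 2227 lower), 4218 of them in the same direction as without it (68.4% of calls without and 92.5% with it), and 1038 by region. Of 401 named genes tested, 363 had the same call with that block, 26 lost it, 12 gained one and 0 reversed. That fit kept only IP replicates 3, 5 and 6 beside the 3 inputs, so pairing and fewer IPs cannot be told apart in it. With the title number as a block, which pairs no mice and whose pairs correlated at −0.06, −0.25 and −0.46, 4072 genes were called, 1625 of them higher, and 507 by region. The title block kept only IP replicates 1, 2 and 3 of the cerebellum beside their 3 inputs. The cause was not tested.

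Over all alternatives but glmTreat, 278 of the 401 genes had the same call. Over these without the input of both control lines, which was not run for lists, 23 of 25 list medians kept their sign. The median of GABA-A and glycine receptors (0.14) was −0.22 with the title number as a block, −0.11 without input replicate 1 and 0.56 without input replicate 2. That of immediate early genes was 0.03 without input replicate 1 and −1.45 without IP replicate 3. *Chtf8, by region*, was −0.67 without cerebral input replicate 2 and 5.24 without cerebral input replicate 1. The causes were not tested.

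The inputs hold the tagged cells too, and no spike-in scaling was used, so changes are relative to all genes tested.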
